A study of Rattus norvegicus with 51 samples.

Results

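Mitosis and cytokinesis genes encode the proteins that take a cell from mitotic entry to the separation of its daughters. They were described here in engineered tissues of neonatal rat ventricular myocytes. The module is a list of 40 gene symbols, chosen by name. Of these, 38 had a row with that symbol in the deposited expression table, out of 18635 genes with a single symbol. Ccnb2, Kif15 and Nek2 had more than 1 probe set and are represented by their brightest. Birc5 and Anln matched no row by symbol. No filter on dim signal was applied, so all 38 entered each test.

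The cells came from Sprague-Dawley rats, in 6 primary harvests, and sat on silicone membranes. Fibronectin covered the membrane evenly in isotropic tissue and was micropatterned in anisotropic tissue. The 0 h arrays were taken once cells had attached for 1 h, and later tissues were cyclically stretched or kept static. The design asks how transcripts depend on stretch duration, tissue layout and stretch direction. The 16 groups were unstretched isotropic tissue at 0 h (6 arrays, 1 per harvest) and, at each of 6, 24 and 96 h, 5 groups of 3 arrays. These were anisotropic tissue stretched across the pattern (transverse), anisotropic tissue stretched along it (longitudinal), unstretched anisotropic tissue, stretched isotropic tissue and unstretched isotropic tissue. All groups received medium with 10% fetal bovine serum for 48 h and 2% serum from then on, so the 6 and 24 h tissues were collected in high serum and the 96 h tissues in low serum. Time and serum cannot be told apart in comparisons with 96 h. Neither the amplitude and rate of stretch nor the exact animal age is stated in the labels.

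As background, cyclins A and B with the kinase Cdk1 drive a cell into mitosis, kinetochores attach chromosomes to the spindle, and the spindle checkpoint holds back the anaphase-promoting complex until all are attached. Destruction of securin and cyclin B then starts anaphase, and a central spindle directs the contractile ring that divides the cell. Most of these genes are transcribed late in the cell cycle. Rodent cardiomyocytes largely leave the cell cycle in the days after birth, often after a round of nuclear division without cell division, whereas cardiac fibroblasts and other non-muscle cells can go on dividing in culture.

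Many promoters of such genes carry a cell cycle genes homology region (CHR), a short element bound by the MuvB complexes with DREAM, B-Myb and FoxM1, and CCAAT boxes bound by NF-Y. Windows from 250 bases before to 50 bases after the annotated start were available from RefSeq (build GRCr8) for 33 of the 40 members. The letters TTTGAA or TTCGAA, the common CHR sequences, were searched on both strands and occurred in the windows of 23 of 33 members (69.7%), against 21.0% of 27457 symbols with a window. CCAAT, searched on both strands, occurred in 23 of 33 members (69.7%), against 39.6% of all symbols. Both kinds were present in 17 of 33 members (51.5%) and in 8.57% of all symbols. TTCGAA reads the same on both strands, a CHR and a CCAAT match can share an end base, and a match is a stretch of letters, not a measured binding site. Of the 9 members with the highest mean signal in their role, 7 had a window, and these are shown because their array values are given in the results that follow. They run 5′ to 3′ on the strand of the gene, with the matched letters of either strand in capitals (TTCAAA and ATTGG are the opposite-strand forms).
Ccnb1 (chr2:33655176-33655475, minus strand): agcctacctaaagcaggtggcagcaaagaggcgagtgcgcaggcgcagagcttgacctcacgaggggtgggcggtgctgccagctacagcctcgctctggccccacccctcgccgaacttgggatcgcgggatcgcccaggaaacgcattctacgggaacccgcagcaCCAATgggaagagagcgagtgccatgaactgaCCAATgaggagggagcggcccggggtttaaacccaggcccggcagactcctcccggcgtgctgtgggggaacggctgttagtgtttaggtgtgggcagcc
Plk1 (chr1:186147408-186147707, plus strand): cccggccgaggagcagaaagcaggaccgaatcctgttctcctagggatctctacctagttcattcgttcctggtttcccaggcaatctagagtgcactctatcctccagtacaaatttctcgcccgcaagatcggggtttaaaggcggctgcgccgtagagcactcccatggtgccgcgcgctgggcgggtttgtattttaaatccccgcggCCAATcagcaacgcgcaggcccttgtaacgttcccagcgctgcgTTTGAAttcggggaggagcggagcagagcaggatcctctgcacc
Mad2l1 (chr4:97236259-97236558, plus strand): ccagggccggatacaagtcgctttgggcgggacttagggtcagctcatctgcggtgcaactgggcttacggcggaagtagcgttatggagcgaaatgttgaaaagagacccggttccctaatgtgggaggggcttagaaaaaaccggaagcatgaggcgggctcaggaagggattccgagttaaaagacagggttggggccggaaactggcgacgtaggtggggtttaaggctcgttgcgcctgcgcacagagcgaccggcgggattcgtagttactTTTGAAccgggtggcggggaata
Pttg1 (chr10:28406277-28406576, minus strand): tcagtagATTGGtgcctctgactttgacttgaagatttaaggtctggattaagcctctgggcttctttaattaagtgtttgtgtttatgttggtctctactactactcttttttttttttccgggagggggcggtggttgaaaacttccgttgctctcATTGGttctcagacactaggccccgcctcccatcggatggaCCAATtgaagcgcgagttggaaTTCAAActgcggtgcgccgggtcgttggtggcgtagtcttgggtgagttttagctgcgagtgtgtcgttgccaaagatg
Spc25 (chr3:74396669-74396968, minus strand): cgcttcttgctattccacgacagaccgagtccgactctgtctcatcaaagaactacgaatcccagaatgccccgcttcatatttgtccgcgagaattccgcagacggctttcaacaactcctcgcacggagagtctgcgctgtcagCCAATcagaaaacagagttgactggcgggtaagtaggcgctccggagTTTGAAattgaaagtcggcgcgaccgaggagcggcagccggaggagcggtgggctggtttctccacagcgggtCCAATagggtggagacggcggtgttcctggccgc
Top2a (chr10:84473044-84473343, minus strand): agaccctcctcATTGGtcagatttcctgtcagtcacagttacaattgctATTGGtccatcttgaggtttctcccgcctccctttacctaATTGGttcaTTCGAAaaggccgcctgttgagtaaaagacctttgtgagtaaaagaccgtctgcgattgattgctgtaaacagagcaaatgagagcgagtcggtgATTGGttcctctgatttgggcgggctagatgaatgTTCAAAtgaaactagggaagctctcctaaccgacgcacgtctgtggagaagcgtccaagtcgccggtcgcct
Prc1 (chr1:143659231-143659530, plus strand): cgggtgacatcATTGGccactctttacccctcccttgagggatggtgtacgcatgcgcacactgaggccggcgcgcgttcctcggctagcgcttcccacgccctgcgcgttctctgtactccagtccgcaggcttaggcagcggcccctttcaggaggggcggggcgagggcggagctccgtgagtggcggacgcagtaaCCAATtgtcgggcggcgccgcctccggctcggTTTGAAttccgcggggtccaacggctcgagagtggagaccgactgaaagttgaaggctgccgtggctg
The window of Ccnb1, cyclin B1, held CCAAT 2 times and neither CHR sequence. That of Mad2l1 held a CHR sequence and no CCAAT. The other 5 windows held both kinds. Counted from the annotated start, the first CHR base nearest to it was at position -57 for Spc25, 7 for Plk1 and 28 for Mad2l1.

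Values are RMA log2 signals, so a difference of 1 is a doubling, and signals of different probe sets are not compared as levels. Array medians lay between 5.31 and 5.43. The 7 cardiomyocyte markers averaged 10.9 to 12.0 on every array. Changes are log2 differences, stretched minus unstretched, transverse minus longitudinal, anisotropic minus isotropic or later minus earlier. They come ± SE from limma, fitted to all 51 arrays with harvest as a term. Called means an adjusted p under 0.05 over all 18635 genes, and the number of arrays limits the precision. Arrays of 1 group came from different harvests. In isotropic tissue 2 arrays did not lie with their groups. On an axis of all genes from unstretched anisotropic tissue at 24 h (position 0) to 96 h (position 1), replicate 1 of the 24 h stretched isotropic group lay at 0.902 (the other two at 0.0665 and 0.0560), and replicate 1 of the 96 h unstretched isotropic group lay at 0.216 (the other two at 1.03 and 1.01). Counts that these 2 arrays move by over 1.5 times are also given with them exchanged and with both left out. Shares of all genes are those of the fit to all 51 arrays as labelled. Most counts under other settings are given without the share of all genes called under that setting.

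The module moved mostly as a block in time (the plot of its mean by array). Over the 38 members, the mean log2 signal was 7.53 ± 0.14 at 0 h (SD, n = 6). In unstretched isotropic tissue it was 7.53 ± 0.09 at 6 h, 6.83 ± 0.20 at 24 h and 7.43 ± 0.97 at 96 h (SD, n = 3 each). In unstretched anisotropic tissue it was 7.46 ± 0.14 at 6 h, 6.84 ± 0.14 at 24 h and 7.68 ± 0.19 at 96 h. The means of unstretched tissue thus dipped at 24 h and at 96 h were near that of the 0 h group, which was isotropic. The 96 h arrays of unstretched isotropic tissue ran from 6.31 to 7.995, past both ends of the 0 h range (7.33 to 7.69). The lowest was replicate 1, which lay apart in all genes. Its group mean at 96 h therefore does not show a return to the starting level. The stretched groups had lower means at 24 and 96 h, and in the transverse and isotropic ones the array of harvest 2 stood above the others at 96 h. Transversely stretched tissue had 7.46 ± 0.06 at 6 h, 6.37 ± 0.11 at 24 h and 6.09 ± 0.92 at 96 h. Longitudinally stretched tissue had 7.36 ± 0.06 at 6 h, 6.34 ± 0.08 at 24 h and 6.53 ± 0.12 at 96 h. Stretched isotropic tissue had 7.51 ± 0.18 at 6 h, 6.43 ± 0.44 at 24 h and 6.69 ± 0.73 at 96 h. In these bulk samples, fewer cells of a type and less RNA per cell cannot be told apart.

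**Figure D1:**
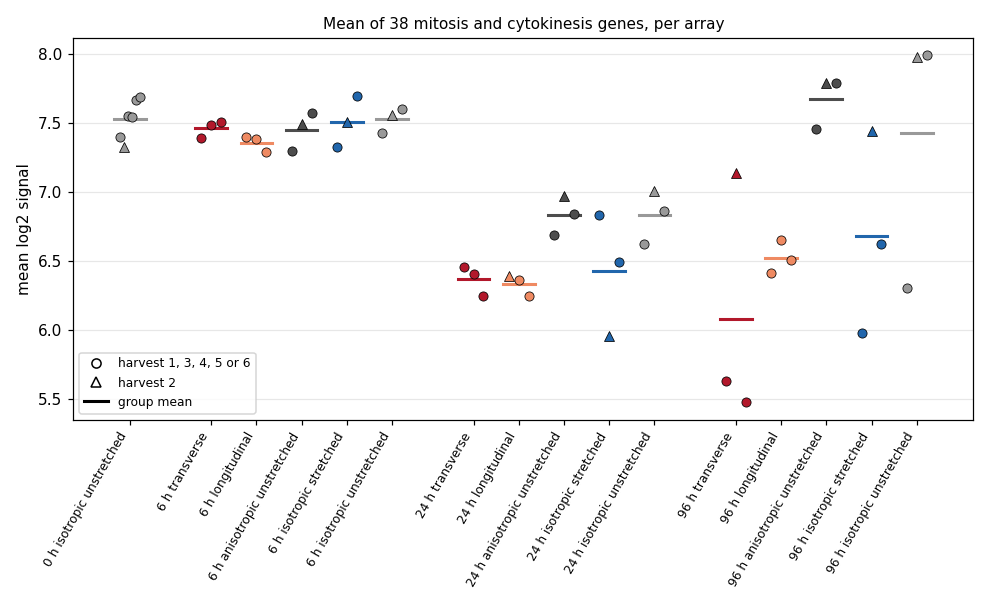
Mean log2 signal of the 38 measured members on each array (vertical axis), by group (horizontal axis), with triangles for arrays of harvest 2, circles for other harvests and a bar for the group mean. At 96 h the transverse arrays sit at 5.63, 7.14 and 5.48, against 7.46, 7.79 and 7.79 in unstretched anisotropic tissue.

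By gene, the lowest group mean fell in transversely stretched tissue at 96 h for 30 of 38 members, and the highest in unstretched anisotropic tissue at 96 h for 21. A further 8, among them Pttg1, Ndc80, Mki67 and Prc1, had their highest mean at 0 h. The distance from the lowest to the highest group mean ran from 0.17 to 2.69, with a median of 1.75. Pbk, a mitotic kinase, had the widest range (2.69), followed by Mki67 (2.53), the proliferation marker Ki-67, and Ccnb1 (2.43). At the other end, Cks2 (0.17), a small cyclin-dependent kinase subunit, stayed between 4.10 and 4.70 on all arrays, and its mean lay at percentile 24.7 of all genes. Ube2c (0.59), the ubiquitin-conjugating enzyme of the anaphase-promoting complex, Kif15 (0.72), a spindle kinesin, and Mad2l1 (0.84), a checkpoint protein, also varied little.

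**Figure D2:**
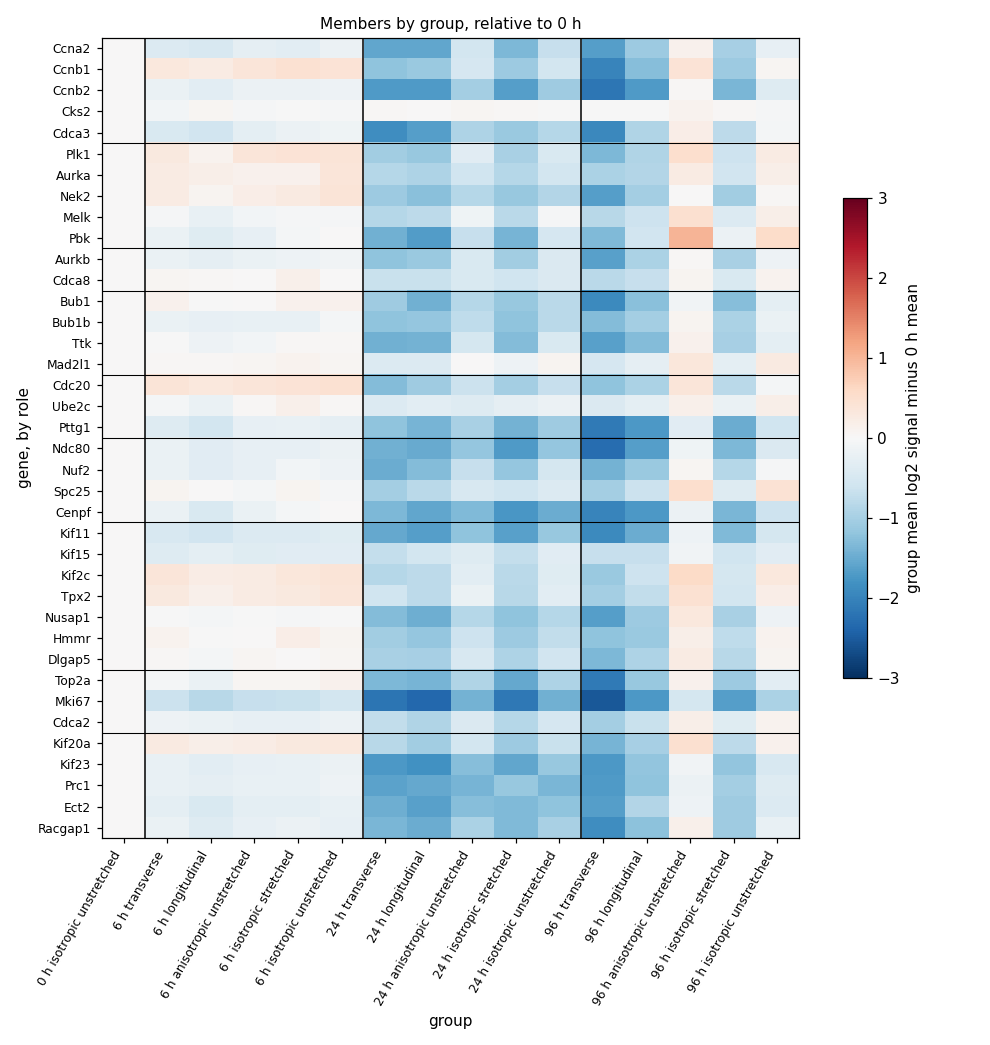
Group mean log2 signal of each member minus its mean at 0 h (colour, red higher and blue lower), with genes by role down the page and groups by time across it. The 24 h stretched groups and the 96 h stretched groups are blue for nearly all genes but Cks2. Unstretched groups at 24 h are also lower on average (6.83 in isotropic and 6.84 in anisotropic tissue, against 7.53 at 0 h). The 96 h unstretched groups are close to 0 h on average (7.43 and 7.68), but not for every gene. The isotropic arrays behind the 7.43 ran from 6.31 to 7.995.

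The comparison of 96 h of transverse stretch with no stretch gave the broadest call. Of 38 members 37 fell and 1 (Cks2, -0.13 ± 0.11) did not pass, while 8.65% of all genes were called lower. The median change over members was -1.60, against 0.02 over all genes. The largest changes were those of Ccnb1 (-2.36 ± 0.42, 5.15-fold, adjusted p = 0.00016), Pbk (-2.24 ± 0.58, adjusted p = 0.0065) and Ccnb2, cyclin B2 (-2.13 ± 0.43, adjusted p = 0.00065). Transverse and unstretched arrays did not overlap, with transverse lower, for 34 of 38 members, against 11.3% of all genes, and they overlapped for Ect2, Prc1, Hmmr and Cks2.

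Longitudinal stretch for 96 h lowered a smaller set. Of 38 members 27 fell, with 5.38% of all genes called lower, and the median change was -1.07 (0.01 over all genes). Ccnb2 (-1.58 ± 0.46, adjusted p = 0.022), Ccnb1 (-1.56 ± 0.45, adjusted p = 0.021) and Kif20a, a kinesin of the central spindle (-1.44 ± 0.40, adjusted p = 0.018), had the largest changes among the called members. All but Cks2 had every longitudinal array below every unstretched one, as did 11.6% of all genes. The 11 that did not pass were Pbk (-1.48), Nusap1 (-1.29), Spc25 (-1.03), Top2a (-1.02), Mki67 (-0.96), Prc1 (-0.96), Nek2 (-0.93), Cdca3 (-0.88), Ect2 (-0.78), Ube2c (-0.42) and Cks2 (-0.12). This count rested on single arrays. It was 11, 17 and 12 without unstretched replicate 1, 2 and 3, and 9 and 14 without longitudinal replicate 2 and 3. For transverse stretch it stayed between 34 and 37. Transverse and longitudinal tissue were set against the same 3 unstretched arrays, and their profiles are not independent of each other.

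Per-array values follow, in log2 signal, for the leading member of each role. Transverse arrays came from harvests 1, 2 and 4, longitudinal arrays from harvests 1, 5 and 6 and unstretched arrays from harvests 1, 2 and 3, in that order. For mitotic entry, Ccnb1 had 5.67, 8.39 and 6.05 in transverse tissue, 7.20, 7.52 and 7.49 in longitudinal tissue and 8.76, 9.25 and 9.27 in unstretched tissue. All 6 stretched arrays lay below the lowest unstretched array. Ccnb2, its paralogue, had 6.21, 8.07 and 5.80 in transverse tissue, 7.03, 7.32 and 7.09 in longitudinal tissue and 8.65, 8.92 and 9.05 in unstretched tissue. Again all 6 stretched arrays lay below the unstretched ones, and harvest 2 was the highest transverse array. Of the 5 entry genes, 4 fell under transverse and 3 under longitudinal stretch. Cyclin A2, Ccna2, changed by -1.70 ± 0.31 under transverse and -1.02 ± 0.33 under longitudinal stretch, both called. Cdca3, which helps to degrade the mitotic entry inhibitor Wee1, fell by 2.01 under transverse stretch and was at -0.88 ± 0.42 under longitudinal stretch (adjusted p = 0.21).

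Among the mitotic kinases, Plk1, Polo-like kinase 1, had 5.93, 7.80 and 5.64 in transverse tissue, 7.12, 6.93 and 6.66 in longitudinal tissue and 8.15, 8.39 and 8.39 in unstretched tissue. Its change was -1.76 ± 0.37 (adjusted p = 0.00096) under transverse and -1.21 ± 0.39 (adjusted p = 0.046) under longitudinal stretch. Pbk had 5.58, 7.85 and 5.19 in transverse tissue, 6.79, 7.18 and 6.94 in longitudinal tissue and 8.19, 8.78 and 8.71 in unstretched tissue. Neither gene overlapped between stretched and unstretched arrays, yet Pbk did not pass under longitudinal stretch, where its standard error was 0.62. Without transverse replicate 3 the Pbk call under transverse stretch was lost too (-1.72, adjusted p = 0.062). All 5 kinases (Plk1, Aurka, Nek2, Melk and Pbk) fell under transverse stretch and 3 under longitudinal stretch. Aurkb, the kinase of the chromosomal passenger complex, had 5.76, 7.31 and 5.71 in transverse tissue, 6.76, 7.02 and 7.0 in longitudinal tissue and 7.88, 7.90 and 7.99 in unstretched tissue. Both tested module members of that complex fell in either direction. Aurkb fell by 1.59 under transverse and by 1.02 under longitudinal stretch, and Cdca8 (borealin) by 0.89 and by 0.81.

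All 4 checkpoint genes fell under either direction. Mad2l1, which with Bub1b inhibits Cdc20, had 6.48, 7.55 and 6.67 in transverse tissue, 6.81, 7.33 and 7.23 in longitudinal tissue and 7.58, 7.90 and 7.73 in unstretched tissue. The transverse array of harvest 2 lay just under the lowest unstretched array. Its change was -0.87 ± 0.18 (adjusted p = 0.00064) under transverse and -0.59 ± 0.19 (adjusted p = 0.041) under longitudinal stretch, and the kinase gene Ttk changed more, by -1.79 ± 0.33 and -1.37 ± 0.36. Pttg1, securin, had 6.52, 8.48 and 6.43 in transverse tissue, 7.47, 7.72 and 7.40 in longitudinal tissue and 8.75, 9.03 and 8.93 in unstretched tissue. It fell by 1.74 under transverse and by 1.28 under longitudinal stretch. Cdc20, the activator of the anaphase-promoting complex, fell by 1.52 and by 1.33, while Ube2c fell by 0.57 under transverse stretch and did not pass under longitudinal stretch. At the kinetochore, Spc25 had 6.25, 7.78 and 5.94 in transverse tissue, 6.83, 7.17 and 7.10 in longitudinal tissue and 8.0, 8.23 and 8.31 in unstretched tissue. Other subunits of the Ndc80 complex, Ndc80 (-2.11 ± 0.36) and Nuf2 (-1.43 ± 0.29), fell with it under transverse stretch (Spc25 -1.49 ± 0.33), as did Cenpf, a protein of the outer kinetochore (-1.68 ± 0.34).

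All 7 spindle genes fell under transverse stretch and 6 under longitudinal stretch. Tpx2, which activates Aurora A on the spindle, had 6.37, 7.83 and 6.72 in transverse tissue, 6.98, 7.54 and 7.26 in longitudinal tissue and 8.14, 8.58 and 8.64 in unstretched tissue. It fell by 1.46 under transverse and by 1.09 under longitudinal stretch. For chromosome structure, Top2a, the topoisomerase that untangles sister chromatids, had 6.28, 8.39 and 5.43 in transverse tissue, 7.69, 7.81 and 7.59 in longitudinal tissue and 8.88, 8.94 and 9.01 in unstretched tissue. The unstretched arrays were tight, and the transverse arrays spread over the widest interval of these 9 genes. Top2a fell by 2.12 under transverse stretch (adjusted p = 0.00077) and was at -1.02 ± 0.46 under longitudinal stretch (adjusted p = 0.18). Mki67, which coats mitotic chromosomes, fell by 1.85 under transverse stretch, and Cdca2, which directs a phosphatase to chromatin, by 1.13. For cytokinesis, Prc1, which bundles central spindle microtubules, had 6.54, 8.52 and 6.71 in transverse tissue, 7.40, 8.03 and 7.82 in longitudinal tissue and 8.48, 8.93 and 8.90 in unstretched tissue. Its harvest 2 transverse array overlapped the unstretched ones, and its change was -1.47 ± 0.31 (adjusted p = 0.00087). Racgap1 (-1.92 ± 0.33) and Kif23 (-1.51 ± 0.30), which form the centralspindlin complex, and Ect2 (-1.48 ± 0.37), the RhoA activator that it recruits, fell with it.

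**Figure D3:**
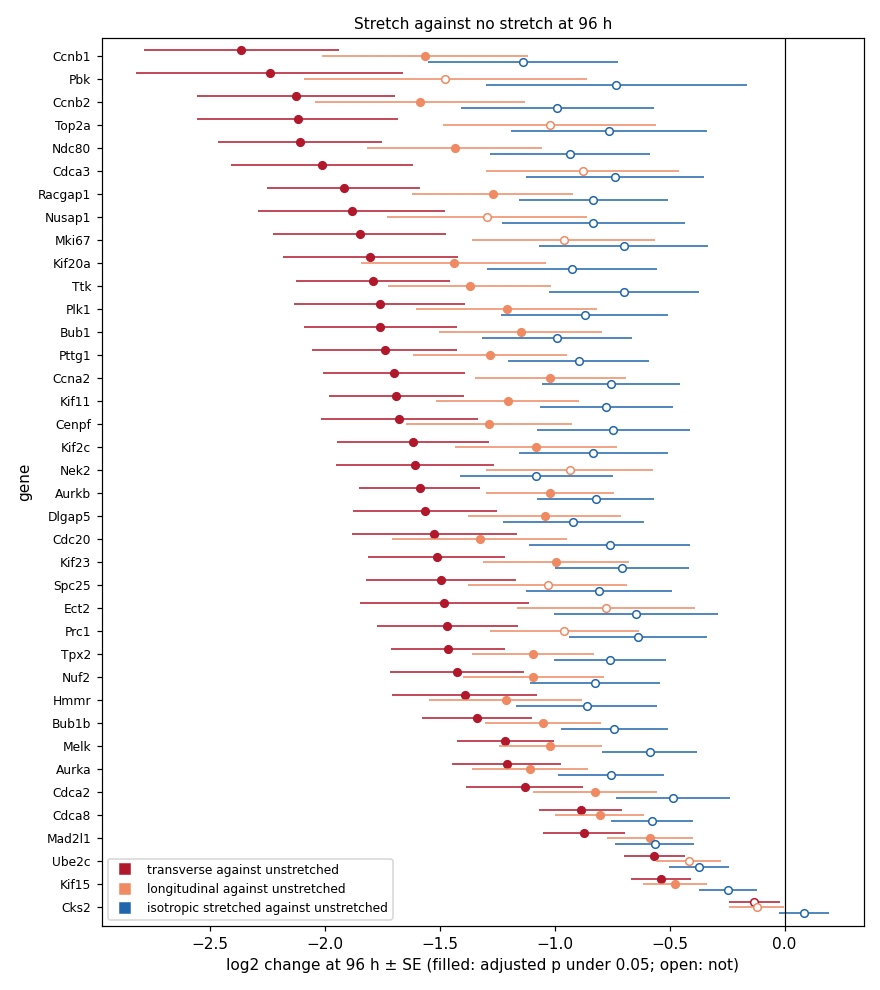
Log2 change at 96 h (horizontal axis, ± SE) of each member (vertical axis, by transverse change) for transverse against unstretched, longitudinal against unstretched and isotropic stretched against unstretched tissue, filled where called. Transverse changes reach -2.36 (Ccnb1), and no isotropic change is called as labelled.

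Set directly against each other at 96 h, transverse and longitudinal stretch differed in no member by the adjusted test, and in 0% of all genes (0 of 18635). All 38 members had a negative difference (median -0.50, 0.00 over all genes), and 5 had an unadjusted p under 0.05, as did 1064 of all genes. These were Cdca3 (-1.13 ± 0.42, 95% interval -1.98 to -0.29), Top2a (-1.10 ± 0.46, -2.03 to -0.16), Mki67 (-0.89 ± 0.39, -1.69 to -0.08), Ccna2 (-0.68 ± 0.32, -1.34 to -0.02) and Aurkb (-0.57 ± 0.28, -1.13 to -0.01). Ccnb1 was at -0.80 with an interval of -1.70 to 0.11, so the data allow both no difference and a fall of more than 1 on the log2 scale. The groups overlapped for every member (2.67% of all genes were wholly lower in transverse tissue). For 36 of 38 members the transverse arrays of harvests 1 and 4 lay below all longitudinal arrays while that of harvest 2 lay above them all, and the plot of the leading members shows this split. The members moved together (median r of 0.96 between a member and the mean of the others, over all arrays). The split is thus one of 3 transverse arrays, and its share over all genes was not computed. Only harvest 1 held both groups, and there 37 of 38 were lower in transverse tissue (median difference -0.76). With harvest 2 left out, a choice made after the arrays were seen, 4 members were called lower in transverse tissue (median -0.97, with 17 genes called in all), namely Top2a (-1.82 ± 0.34), Cdca3 (-1.75 ± 0.32), Ccnb1 (-1.55 ± 0.29) and Pttg1 (-1.02 ± 0.20). At 6 and 24 h no member differed between the directions (medians 0.11 and 0.12, none at an unadjusted p under 0.05, with 0.0215% and 0% of all genes called). The test of whether the transverse against longitudinal difference grew from 24 h to 96 h called no member and 0% of genes (median -0.62). At an unadjusted p under 0.05 there was 1 member, against 1076 of all genes.

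**Figure D4:**
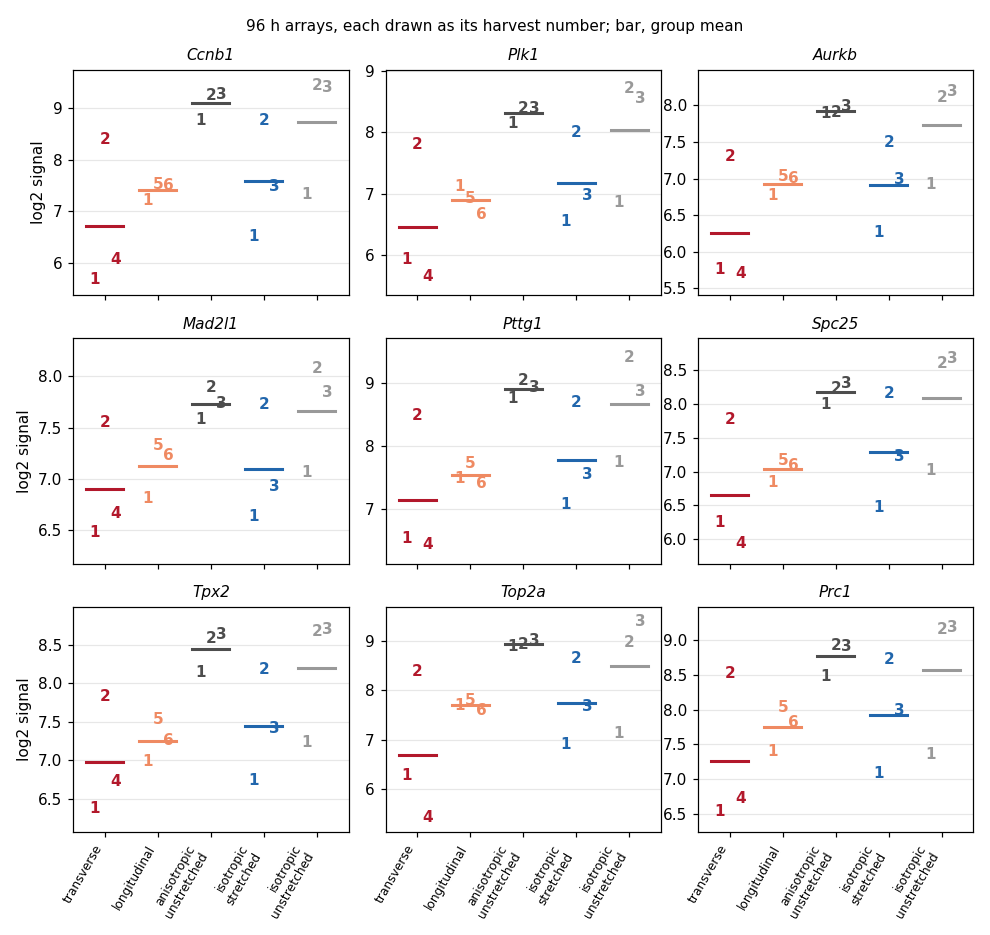
Log2 signal (vertical axis) at 96 h of the leading member of each role, with every array drawn as the number of its harvest and a bar at the group mean. In the transverse group the array of harvest 2 lies above those of harvests 1 and 4 in all 9 panels, as at 8.39 against 5.67 and 6.05 for Ccnb1.

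The transverse difference was unequal in the harvests that held both groups. Within harvest 1 the median difference of the members, transverse minus unstretched, was -1.90, and within harvest 2 it was -0.69 (37 and 38 of 38 lower). Each of these is 1 pair of arrays, so harvest and a single tissue or array cannot be told apart. Harvest 4 had no unstretched 96 h array. Left out altogether, harvest 2 gave 37 called members for transverse stretch (median -2.06) and 29 for longitudinal stretch. The share of all genes called under that setting is not given here. Longitudinal stretch shared only harvest 1 with its control, where the median was -1.08.

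In isotropic tissue, 96 h of stretch called no member as labelled, with 2.93% of all genes called in either direction. The median change was -0.76, 37 of 38 were negative and 30 had an unadjusted p under 0.05, as did 2619 of all 18635 genes. Ccnb1 had 6.51, 8.76 and 7.49 in stretched tissue, against 7.31, 9.45 and 9.41 in unstretched tissue (harvests 1, 2 and 3 in both). Stretched lay below unstretched in each of the 3 harvests, but the groups overlapped, since the unstretched array of harvest 1 was among the low ones. That array, which lay apart in all genes, was the lowest unstretched array for 38 of 38 members. The share of all genes for which it was the lowest was not computed. Nek2, a centrosomal kinase, was at -1.08 ± 0.33 (adjusted p = 0.073) and Ccnb1 at -1.14 ± 0.41 (adjusted p = 0.14). With the 2 arrays exchanged 29 members fell (median -0.95), and with both left out 34 fell (median -1.23). The 2.93% of all genes is the share as labelled, not under these settings. Without unstretched replicate 1 the count was 31 and without stretched replicate 2 it was 14, with calls in either direction counted. The isotropic response was not shown to differ from the others. Compared with the transverse response no member passed, with 0% of genes called, although all 38 differences were positive (median 0.79). Of the members 11 had an unadjusted p under 0.05, as did 1801 of all genes. Compared with the longitudinal response the median was 0.31 and none passed, nor had an unadjusted p under 0.05. At 24 h these medians were 0.08 and 0.22, again with none past either threshold.

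At 24 h of stretch few calls were made. In stretched isotropic tissue 1 of 38 members fell, with 2.94% of all genes lower. It was Melk, a mitotic kinase, with 5.20, 4.71 and 5.07 in stretched tissue, against 5.51, 6.07 and 5.73 in unstretched tissue. These groups did not overlap, and the change was -0.77 ± 0.21 (adjusted p = 0.025). The median over members was -0.38, but within harvest 1, which holds the stretched array that lay apart, 30 of 38 members were higher in stretched tissue (median 0.19). The within-harvest medians were -1.05 in harvest 2 and -0.41 in harvest 4. The call was lost without harvest as a term and without any unstretched replicate or stretched replicate 2. Exchanging the 2 arrays gave 7 falls, leaving both out gave 10, and leaving out stretched replicate 1 or 3 gave 8 or 2 calls in either direction. Transverse stretch (median -0.51, 9 at an unadjusted p under 0.05, 1.49% of all genes called) and longitudinal stretch (median -0.62, 14, 2.22%) called no member, although 22 and 31 members had stretched arrays wholly below unstretched ones, against 7.93% and 10.3% of all genes. An unadjusted p under 0.05 was reached by 2554 and 2425 of all 18635 genes, in that order. Without transverse replicate 1 there were 3 calls. With the 2 isotropic arrays exchanged or left out there were 2 and 4 for transverse and 4 and 5 for longitudinal stretch. At 6 h no member was called for transverse (0% of all genes), longitudinal (0.0966%) or isotropic stretch (0.00537%), with medians of -0.06, -0.16 and -0.04 and none at an unadjusted p under 0.05.

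The time steps were tested within each kind of tissue. Between 6 and 24 h, 28 of 38 members fell in transversely stretched tissue (8.31% of all genes lower), 28 in longitudinally stretched tissue (7.85%), 29 in stretched isotropic tissue (11%), 6 in unstretched anisotropic tissue (6.43%) and 7 in unstretched isotropic tissue (7.77%). The medians were -1.12, -1.13, -1.09, -0.64 and -0.69 in that order. The largest falls in transverse tissue were those of Cdc20 (-1.73 ± 0.37), Ccnb1 (-1.49 ± 0.43) and Kif23 (-1.46 ± 0.31). In longitudinal tissue they were Kif23 (-1.52 ± 0.30), Mki67 (-1.48 ± 0.37) and Cdc20 (-1.42 ± 0.36). In stretched isotropic tissue they were Cenpf (-1.56 ± 0.34), Ccnb1 (-1.53 ± 0.42) and Top2a (-1.47 ± 0.44). Cdc20 had 6.63, 6.40 and 6.72 at 24 h in transverse tissue, against 8.21, 8.26 and 8.32 at 6 h, with no overlap. In longitudinal tissue Kif23 had 6.14, 6.17 and 5.92 at 24 h, against 7.72, 7.49 and 7.54 at 6 h. The unequal counts with and without stretch were not shown to differ, since the steps of stretched and unstretched tissue were not tested against each other beyond the 24 h comparisons above.

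In unstretched tissue the same 3 genes fell most in both layouts. Cenpf (-1.37 ± 0.34 in isotropic and -1.09 ± 0.34 in anisotropic tissue), Nek2 (-1.21 ± 0.34 and -1.05 ± 0.34) and Prc1 (-1.16 ± 0.31 and -1.15 ± 0.31) passed in both. Cenpf had 6.18, 6.70 and 6.43 at 24 h in anisotropic tissue, against 7.47, 7.75 and 7.43 at 6 h, and in isotropic tissue 6.16, 6.33 and 6.30 at 24 h, against 7.62, 7.79 and 7.88 at 6 h. Neither pair of groups overlapped. Nek2 had 6.78, 6.96 and 7.04 at 24 h in anisotropic tissue, against 7.87, 8.02 and 8.10 at 6 h. Aurka and Kif23 also fell in both layouts. These counts moved with single arrays. For unstretched isotropic tissue they were 1 to 4 with any array left out, 11 with the 2 isotropic arrays exchanged, 18 with both left out and 2 with the 0 h array of the same harvest subtracted. For unstretched anisotropic tissue they were 0 to 2, 10, 14 and 0 in the same order. That subtraction gave 15 in transverse, 4 in longitudinal and 15 in stretched isotropic tissue, where the exchange gave 35 and leaving both out 36. For transverse tissue the count was 10 without 6 h replicate 2, 11 without 6 h replicate 3 and 13 without 24 h replicate 2. For longitudinal tissue it was 10 and 18 without 6 h replicate 2 and 3, and 16 and 12 without 24 h replicate 1 and 3. For stretched isotropic tissue it was 13 and 19 without 6 h replicate 1 and 3, and 6 without 24 h replicate 2. All were falls.

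Between 24 and 96 h the recovery in unstretched tissue was called for some genes. In unstretched anisotropic tissue 11 of 38 rose, with 6.60% of all genes higher, and all 38 changes were positive (median 0.80). Of the members 30 had an unadjusted p under 0.05, as did 4876 of all genes. Prc1 (1.17 ± 0.31, adjusted p = 0.0087), Ect2 (1.10 ± 0.37) and Kif23 (1.07 ± 0.30) had the largest changes among the called members. Pbk was at 1.61 ± 0.58 and did not pass (adjusted p = 0.059). Prc1 had 8.48, 8.93 and 8.90 at 96 h, against 7.31, 7.76 and 7.59 at 24 h, and Ect2 had 7.66, 8.01 and 7.83 at 96 h, against 6.52, 6.78 and 6.81 at 24 h. Neither overlapped. The count was 5, 2 and 5 without 24 h replicate 1, 2 and 3, and 3, 3 and 6 without 96 h replicate 1, 2 and 3. In unstretched isotropic tissue none passed as labelled (4.62% of all genes called, median 0.57). There, an unadjusted p under 0.05 was found for 12 members and for 3349 of all genes. However, 23 rose with the 2 arrays exchanged and 28 with both left out. Without 96 h replicate 1 there were 27 calls, counted in either direction. In stretched tissue none rose. Longitudinal tissue (median 0.30, 4 at an unadjusted p under 0.05, 10.7% of all genes called) and stretched isotropic tissue (median 0.23, 0, 5.58%) called no member. An unadjusted p under 0.05 was reached by 4228 and 3543 of all 18635 genes in these steps, in that order. With the 2 isotropic arrays exchanged there were 2 calls in longitudinal tissue and 1 in stretched isotropic tissue. Both left out gave 2 in each, and stretched isotropic tissue also had 2 without 24 h replicate 1. In transverse tissue 1 member fell, with 9.41% of all genes lower. It was Pttg1, with 6.52, 8.48 and 6.43 at 96 h, against 8.0, 8.08 and 8.04 at 24 h, where harvest 2 again made the groups overlap. Its change was -0.94 ± 0.33 (adjusted p = 0.0498). Leaving out any of the other 5 arrays of these groups gave no call. Without the 96 h transverse array of harvest 2 there were 7 calls, counted in either direction.

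Few members were called in the early and layout comparisons. Between 0 and 6 h in unstretched isotropic tissue, 12.5% of all genes were called lower and 1 of 38 members fell. This was Kif15, with 5.24, 5.28 and 5.52 at 6 h, against 5.55 to 5.77 (median 5.69) at 0 h. The groups did not overlap, the change was -0.36 ± 0.11 (adjusted p = 0.014), and no member passed without 6 h replicate 2. Mki67 was at -0.65 and Cdc20 at 0.49, both short of the test. With both isotropic arrays left out 2 members passed. Between unstretched anisotropic and unstretched isotropic tissue no member was called at 6, 24 or 96 h (medians -0.05, 0.02 and 0.26, none at an unadjusted p under 0.05, with 0%, 0% and 0.0161% of all genes called). At 96 h Ccnb1 was at 0.37 with a 95% interval of -0.47 to 1.21. For this gene the data thus allow both no difference and a rise of more than 1 on the log2 scale. The 96 h median was unequal between harvests, each with 1 pair of arrays. It was 1.14 in harvest 1, which holds the isotropic array that lay apart, and -0.21 and -0.18 in harvests 2 and 3.

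Other genes of the cell cycle were taken from lists by role. Beside their counts at 96 h, 8.65% of all genes were called lower and 6.38% higher under transverse stretch, and 5.38% lower and 4.28% higher under longitudinal stretch. Of 39 measured mitotic genes outside the module, 35 fell after 96 h of transverse and 13 after 96 h of longitudinal stretch. Cdk1, listed as Cdc2, the kinase that cyclin B activates, fell by 1.88 ± 0.39 under transverse stretch (5.91 ± 1.30 in transverse and 7.81 ± 0.12 in unstretched tissue, SD, n = 3 each). Fbxo5 (-1.84 ± 0.41), an inhibitor of the anaphase-promoting complex, and Casc5 (-1.79 ± 0.33), a kinetochore scaffold, fell next. Of 22 DNA replication genes, 21 fell under transverse and 6 under longitudinal stretch, led under transverse stretch by Rrm2 (-1.90 ± 0.42), the small subunit of ribonucleotide reductase, Uhrf1 (-1.30 ± 0.20), which maintains DNA methylation at replication, and Mcm5 (-1.13 ± 0.21), a subunit of the replicative helicase. Of 16 transcriptional regulators, 7 fell and 1 rose under transverse stretch, and 2 fell and 1 rose under longitudinal stretch. Mybl2, which encodes B-Myb, fell by 1.01 ± 0.16 under transverse, by 0.61 ± 0.17 under longitudinal and by 0.61 ± 0.16 under isotropic stretch. Foxm1 (-0.94 ± 0.23) and E2f1 (-0.98 ± 0.31) fell under transverse stretch and did not pass under longitudinal stretch (-0.49 ± 0.24 and -0.30 ± 0.33). Cdkn1a, the inhibitor p21, rose by 0.85 ± 0.19 under transverse and by 0.73 ± 0.20 under longitudinal stretch. Of 13 G1 genes, 2 rose and 5 fell under transverse stretch, led by Cdkn2c, the inhibitor p18 (-1.32 ± 0.29). Ccnd1, cyclin D1, was at 0.07 ± 0.22 and Cdkn1b, the inhibitor p27, at 0.03 ± 0.11.

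Between 6 and 24 h, 9 of 22 replication genes rose in unstretched anisotropic tissue (7.06% of all genes higher) and 9 in unstretched isotropic tissue (5.89%), and none was called lower. Their change was not tested against that of the module. Cdc6, a licensing factor, rose by 1.04 ± 0.19 in anisotropic and by 0.72 ± 0.19 in isotropic tissue, and Uhrf1 by 0.76 ± 0.20 and by 0.77 ± 0.20. Ccnd1 rose by 1.08 ± 0.22 in anisotropic and by 0.99 ± 0.22 in isotropic tissue. In stretched tissue no replication gene rose over this step, with 6.99%, 6.26% and 6.15% of all genes higher in transverse, longitudinal and isotropic tissue. Of the 22, 2 fell in transverse (8.31% of all genes lower), 1 in longitudinal (7.85%) and 0 in stretched isotropic tissue (11%). The steps of stretched and unstretched tissue were not tested against each other.

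Markers of other cells were also measured at 96 h, and fibroblast and macrophage means were lower in stretched anisotropic tissue, with the shares of all genes as given above. The mean of 7 fibroblast markers was 8.30 to 8.71 in transverse and 8.71 to 8.96 in longitudinal tissue, against 10.2 to 10.6 in unstretched anisotropic tissue. In both directions 4 of 7 fell, among them Lum (-3.25 ± 0.45 under transverse and -2.89 ± 0.48 under longitudinal stretch) and Dcn (-3.03 ± 0.31 and -2.66 ± 0.33), both matrix proteoglycans. The mean of 6 macrophage markers was 5.18 to 5.58 in transverse and 5.02 to 5.69 in longitudinal tissue, against 7.15 to 7.44 in unstretched anisotropic tissue, and 6 of 6 fell in both directions. The mean of 7 cardiomyocyte markers was 11.3 to 11.5 in transverse and 11.5 in longitudinal tissue, against 11.2 to 11.8 in unstretched tissue. Here 2 of 7 fell and 1 rose under transverse stretch, and 2 fell under longitudinal stretch. The 4 endothelial markers averaged 4.90 to 5.05 in transverse and 4.89 to 5.01 in longitudinal tissue, against 5.28 to 5.57 in unstretched tissue, of which 2 and 1 fell. Of 5 smooth muscle and pericyte markers, 2 rose and 2 fell under transverse stretch, and 1 rose and 1 fell under longitudinal stretch. The transverse array of harvest 2, high for the module at 7.14, had a fibroblast mean of 8.71, the highest of the transverse arrays. The longitudinal arrays had 8.71 to 8.96. Its macrophage mean of 5.47 lay within the transverse range of 5.18 to 5.58. The part of these cells in the fall of the module was not tested.

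**Figure D5:**
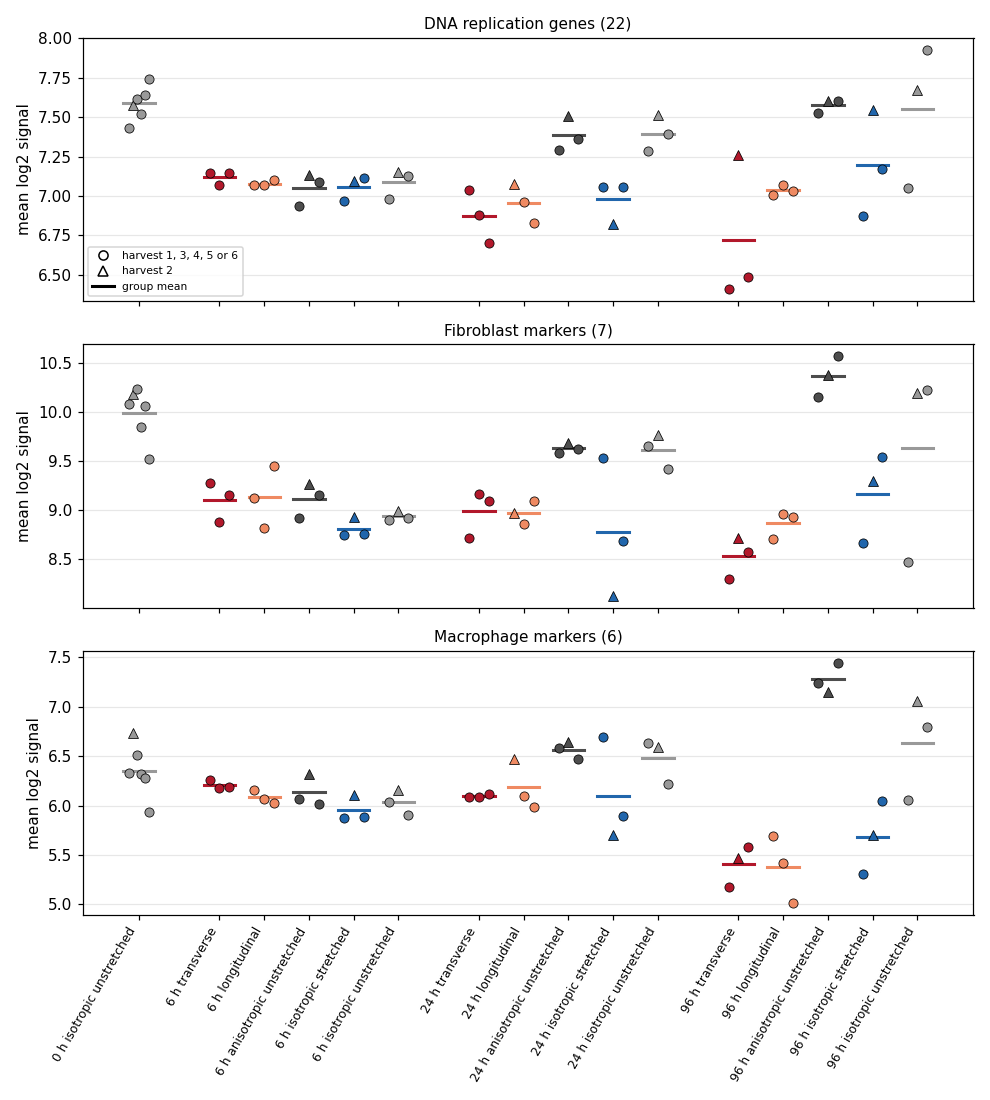
Mean log2 signal per array (vertical axes) of DNA replication genes, fibroblast markers and macrophage markers, by group (horizontal axis), with triangles for harvest 2 and bars for group means. Fibroblast and macrophage means are lower in the stretched anisotropic groups at 96 h than in unstretched anisotropic tissue. The harvest 2 transverse array stands out for replication genes. It is the highest transverse array for fibroblast markers and lies between the others for macrophage markers.

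Birc5, survivin of the chromosomal passenger complex, was followed on 1 probe set that carried a Birc5 accession and no symbol, and was not tested. It had 5.72, 6.12 and 5.31 in transverse, 5.68, 5.6 and 5.56 in longitudinal and 6.36, 6.54 and 6.46 in unstretched anisotropic tissue at 96 h. All 6 stretched arrays lay below the unstretched ones, and harvest 2 was again the highest of the transverse arrays. The group means were 6.45 ± 0.09 at 0 h (SD, n = 6), 6.29 to 6.37 at 6 h and 5.57 to 5.92 at 24 h.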

How the data were processed

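Total RNA of 51 tissues was hybridised to Affymetrix arrays. The authors deposited log2 signals of 29214 probe sets, which by the submitters' processing notes came from RMA (Affymetrix Expression Console). The notes also name limma, and versions were not stated there. The 2 deposited signal tables held identical values (largest difference 0), and a deposited table of fold changes was not used. Of the probe sets 20420 had 1 symbol, 8792 none and 2 several. Keeping the brightest probe set of each symbol left 18635 genes (1039 with several).

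The members, lists and tests were chosen with earlier results of these data known. Groups were compared with limma 3.58.1 (R 4.3.3) in 1 fit of group means plus harvest terms (30 residual degrees of freedom), with Benjamini-Hochberg adjustment over all genes for each of 31 comparisons and a threshold of 0.05. The procedure was tested on simulated data. Harvest, taken from the labels, pairs the arrays. Deviations from group means had a mean r of 0.22 between arrays of the same harvest (220 pairs) and -0.05 between arrays of other harvests (995 pairs). Replicate numbers were not used as pairs.

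Array values at 96 h are given for the member with the highest mean signal in each of 9 roles. Up to 3 called members with the largest change are named per comparison, and array values are given for some of them. Genes outside the module are named where they are among the 3 largest called changes of their list, plus Cdk1, Foxm1, Mybl2, Ccnd1, Cdkn1a and Cdkn1b. Further members are named with changes only. Alternatives were leaving out harvest as a term, subtracting each harvest's own 0 h array, leaving out dim genes, repeating quantile scaling, averaging probe sets, exchanging or leaving out 2 isotropic arrays, leaving out harvest 2 (chosen after the data were seen) and leaving out each array in turn. Promoter windows came from RefSeq tables (GRCr8), and figures from Python 3.11.15 with matplotlib 3.10.9.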

Additional observations from a re-analysis of the deposited data

Results flagged for a closer look

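Among the 38 members, 3 had an array at 0 h, the only group large enough (6 arrays) for this check, whose gap to the nearest other array was wide relative to the range of the group. Chance alone flags about 1 in 20 such checks. With 1 check for each of 38 members, a few flags would arise by chance alone. Ccna2 had 7.77 on its lowest array, and the others lay between 7.92 and 8.01. Nek2 had 7.37 on its lowest array, and the others lay between 7.76 and 7.97. Top2a had 8.99 on its highest array, and the others lay between 8.75 and 8.82. The cause was not tested.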

How the results depend on the processing

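No alternative turned the direction of a called result. The 37 falls under 96 h of transverse stretch kept their number under all settings except without dim genes (34, with fewer members entered) and without single arrays (34 to 37). For longitudinal stretch at 96 h the range with single arrays left out was 9 to 19, and 27 to 34 under other settings.

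Each count below is of members called, without the share of all genes called under the same setting. Without harvest as the replicate block, the 24 h isotropic count was 0, the 24 against 6 h count in unstretched anisotropic tissue 2, and the 96 against 24 h count in transverse tissue 0, and the block changed no other count by over 1.5 times. After subtraction of the 0 h array of the same harvest, the 24 against 6 h counts were 15 in transverse, 4 in longitudinal, 0 in unstretched anisotropic, 15 in stretched isotropic and 2 in unstretched isotropic tissue, the 96 against 24 h counts 0 in transverse and 4 in unstretched anisotropic tissue, and the 24 h isotropic stretch count 0. With dim genes left out, the isotropic stretch counts were 0 at 24 h and 5 at 96 h, longitudinal stretch at 24 h had 1, and unstretched isotropic tissue had 0 for 6 against 0 h and 1 for 96 against 24 h. With quantile scaling repeated, isotropic stretch at 96 h had 1, unstretched isotropic tissue 4 for 24 against 6 h and 1 for 96 against 24 h, and transverse tissue 0 for 96 against 24 h. With probe sets averaged, isotropic stretch at 24 h had 2 and transverse tissue 0 for 96 against 24 h.

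With the 2 isotropic arrays exchanged, isotropic stretch had 7 at 24 h and 29 at 96 h, longitudinal and transverse stretch at 24 h had 4 and 2, the 24 against 6 h counts were 10 in unstretched anisotropic and 11 in unstretched isotropic tissue, and the 96 against 24 h counts were 2 in longitudinal, 22 in unstretched anisotropic, 1 in stretched isotropic and 23 in unstretched isotropic tissue. With both left out these were 10 and 34, 5 and 4, 14 and 18, and 2, 29, 2 and 28, and 6 against 0 h had 2. Without harvest 2, transverse against longitudinal stretch at 96 h had 4, isotropic stretch 0 at 24 h and 10 at 96 h, stretched isotropic tissue 17 for 24 against 6 h, and the 96 against 24 h counts were 15 in transverse and 4 in unstretched anisotropic tissue.

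With single arrays left out, the ranges were 0 to 8 for isotropic stretch at 24 h, 0 to 31 at 96 h, 0 to 3 for transverse stretch at 24 h, and 0 to 1 for 6 against 0 h. For 24 against 6 h they were 10 to 26 in transverse, 10 to 22 in longitudinal, 0 to 2 in unstretched anisotropic, 6 to 35 in stretched isotropic and 1 to 4 in unstretched isotropic tissue. For 96 against 24 h they were 0 to 7 in transverse, 2 to 6 in unstretched anisotropic, 0 to 2 in stretched isotropic and 0 to 27 in unstretched isotropic tissue. The cause of these shifts was not tested, beyond the smaller number of arrays or genes that some settings leave.

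With 3 arrays in each group after 0 h, wide intervals such as those of Ccnb1 between directions allow both no difference and a sizeable one. Harvests were spread unevenly over groups, so longitudinal stretch at 96 h shared only harvest 1 with its control. The files give no background level, so how far dim members such as Cks2 lie above it was not tested. Serum was lowered between 24 and 96 h in all tissues, and fibroblast and macrophage marker means were lower in stretched anisotropic tissue at 96 h. The files hold no measure of cell number or of division itself.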
